A study of Mus musculus with 16 samples.

Results

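The mRNAs described here are the nuclear transcripts for subunits of the mitochondrial respiratory chain and ATP synthase. They were taken by name from the table of 13015 RNAs (names in Ndufa, Ndufb, Ndufc, Ndufs, Ndufv, Uqcr, Atp5 and Cox4 to Cox8, with Sdha to Sdhd), leaving out 7 assembly factors named Ndufaf and 1 pseudogene, Atp5l2-ps. This gave 80 mRNAs: 36 for complex I, 4 for complex II, 8 for complex III, 15 for complex IV and 17 for complex V. Ndufa4 and its paralog Ndufa4l2 carry complex I names but were counted with complex IV, where the Ndufa4 protein is found. Atp5s and Atp5sl were kept under complex V by name, although neither protein is a core subunit of the ATP synthase.

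The libraries came from immortalized mouse fibroblasts (NIH/3T3) that had received either an siRNA against the tumor suppressor Apc (siAPC) or a control siRNA (siControl), and the siRNA lowers Apc without removing the gene. All cells were serum-starved, left for 2 h on porous filters (3.0 µm), exposed for 1 h to lysophosphatidic acid in the lower chamber and fixed in 0.3% paraformaldehyde for 10 min. Protrusions (Ps) were collected from below the filter and cell bodies (CB) from above it. Each siRNA thus gave a CB and a Ps group, and each of these 4 groups had 4 libraries. Values are log2 CPM (reads relative to a scaled library size, on a log2 scale), and differences are log2 ratios with the standard error (SE) of a limma fit over all 16 libraries. An mRNA was called higher or lower at an adjusted p below 0.05 over all 13015 RNAs.

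The respiratory chain sits in the inner mitochondrial membrane. Complex I takes electrons from NADH and complex II from succinate, both pass them to ubiquinone, complex III passes them on to cytochrome c, and complex IV reduces oxygen. The proton gradient that complexes I, III and IV build drives complex V, the ATP synthase. A few core subunits of complexes I, III, IV and V are made inside the organelle from the mitochondrial genome, while all subunits of complex II and the rest of the others are translated in the cytoplasm from nuclear mRNAs and imported.

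Each library held 13466225 to 20296087 reads in listed RNAs (mean 16958362 ± 1860016, SD, n = 16). Apc was read first, as a check of the siRNA labels. Its log2 CPM in CB was 2.61 ± 0.65 (SD, n = 4) with siControl and 0.93 ± 0.38 (SD, n = 4) with siAPC, and in Ps 3.53 ± 0.18 and 1.68 ± 0.26, with no overlap in either fraction (exact two-sided permutation p = 0.0286 each, the smallest possible). In CB 31.3% and in Ps 27.9% of the control level remained. All 10 fibroblast markers looked for were listed, whereas 2 of 6 epithelial (Cdh1 and Krt14), 1 of 7 leukocyte (Cd68), 1 of 4 endothelial (Pecam1) and 1 of 5 muscle markers (Acta1) were. A listed marker need not be abundant: mean log2 CPM ran from -1.74 to 13.08 over the fibroblast markers. The 2 epithelial markers had means of 1.02 and 8.32, Cd68 2.19, Pecam1 -1.49 and Acta1 2.99. Markers also differed between fractions: the summed CPM of the fibroblast list was 40900 to 43100 in siControl CB and 19200 to 22100 in siControl Ps, and that of the nuclear RNAs Malat1 and Neat1 was 681 to 1030 and 112 to 280. Of the 10 fibroblast markers 2 were nevertheless higher in siControl Ps, with Vim at 0.81, and 7 lower. In replicate 2 of siAPC Ps, siAPC CB and siControl Ps and in replicate 3 of siControl CB, genes rich in GC read lower than in the replicates beside them (Spearman rho across genes from -0.535 to -0.653). These 4 are called GC-affected below. Trends of the opposite sign were found in others, the largest 0.537 in siAPC CB 3 and 0.506 in siAPC Ps 4. Only that of siAPC CB 3 was as large as the smallest of the 4.

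All 80 mRNAs were measured, and 79 had a mean log2 CPM of at least 1. The exception was Ndufa4l2, a paralog of Ndufa4 known to be induced by hypoxia, with 7 to 32 reads per library. Per kilobase of transcript, mean levels differed widely between mRNAs. Atp5b, the catalytic beta subunit of ATP synthase, was highest at 10.04 log2 CPM per kilobase. Cox4i1, the ubiquitous form of subunit 4 of cytochrome c oxidase, followed at 10.02. The median level per kilobase was 6.76 in complex I (4.13 to 8.70), 6.06 in complex II (5.46 to 6.90), 7.90 in complex III (6.26 to 9.25), 8.02 in complex IV (-0.23 to 10.02) and 8.41 in complex V (0.43 to 10.04). At the low end were Ndufs1 of complex I at 4.13, Cox7b2 at 2.77, Cox6a2 at 1.89 and Atp5s at 0.43. Cox7b2 and Cox6a2 are isoforms best known from testis and from striated muscle. The isoform genes Cox4i2, Cox6b2, Cox7a1 and Cox8b were not among the listed RNAs.

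In reads, the 80 mRNAs made up a larger part of Ps than of CB. Their share of listed reads was 1.50%, 1.53%, 1.37% and 1.47% in siControl CB (mean 1.47% ± 0.068, SD, n = 4) and 1.90%, 1.89%, 1.86% and 1.90% in siControl Ps (1.88% ± 0.0194, SD, n = 4), a ratio of means of 1.29. With siAPC the share was 1.44% ± 0.0132 (SD, n = 4) in CB and 1.88% ± 0.0502 (SD, n = 4) in Ps, a ratio of 1.31. In both siRNAs the lowest Ps library was above the highest CB library for each of the 5 complexes. The ratio was largest for complex IV (1.45 in both siRNAs) and smallest for complex II (1.09 with siControl and 1.14 with siAPC). Since every value is relative to the other RNAs of its fraction, more of an mRNA in a protrusion and less of other RNAs there cannot be told apart, nor can fewer cells and less RNA per cell.

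**Figure D1:**
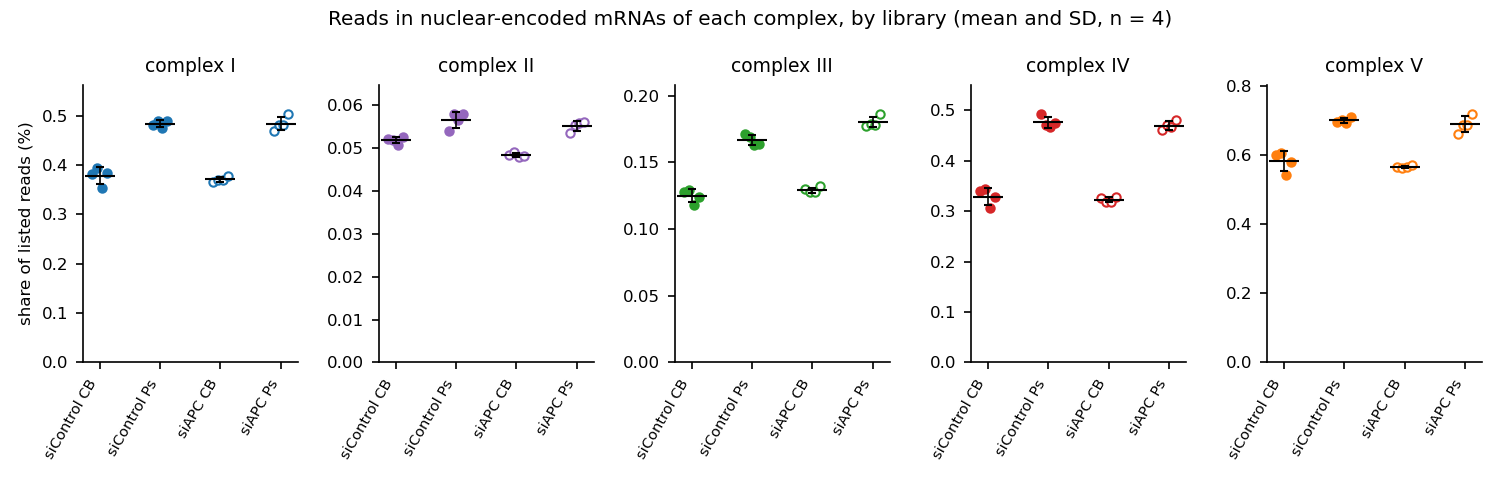
Share of listed reads (%) in the nuclear-encoded mRNAs of each complex, by library. Points are the 4 libraries of each group (filled, siControl; open, siAPC), and black marks are mean and SD. Ps libraries lie above CB libraries in every panel, with the widest gap for complex IV (1.45-fold) and the narrowest for complex II (1.09-fold with siControl).

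Which of these mRNAs were concentrated in protrusions of control cells was asked by comparing Ps with CB in siControl. Of the 80 mRNAs, 75 were higher in Ps (93.8%) and 0 were lower, at limma adjusted p below 0.05. At an unadjusted p below 0.05 the counts were 76 and 0, against 31.2% and 33.1% of all RNAs. In the whole table, 29.1% of RNAs were higher and 31.2% lower. The median log2 Ps/CB was 0.74 over the 80 mRNAs and -0.00 over the table. By the stricter rule of a fold change above 2 with an unadjusted p below 0.05, 17 of the 80 were Ps-enriched, against 7.19% of all RNAs. Scaled to total listed reads, 3 of the 80 (3.75%) met this rule, close to the 3.78% of all RNAs that did. After a loess correction for GC content and length 0 did, against 3.48% of all RNAs. Those 17 comprised 8 mRNAs of complex I, 2 of complex III, 3 of complex IV and 4 of complex V. The 5 mRNAs that did not pass the adjusted threshold were Ndufv1 of complex I, Uqcrc1 of complex III, Cox6a2 and Ndufa4l2 of complex IV, and Atp5sl. The median of the 80 mRNAs in the 4 same-numbered pairs of libraries was 0.82, 0.59, 0.93 and 0.71, so it was positive in each. When total listed reads set the scale, the whole table had a median of -0.298, and 62 of the 80 mRNAs were higher and 3 lower, against 15.4% and 47.6% of all RNAs. The median of the 80 less that of all RNAs was 0.745, which a scaling of whole libraries cannot change, and 0.187 after the loess correction.

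**Figure D2:**
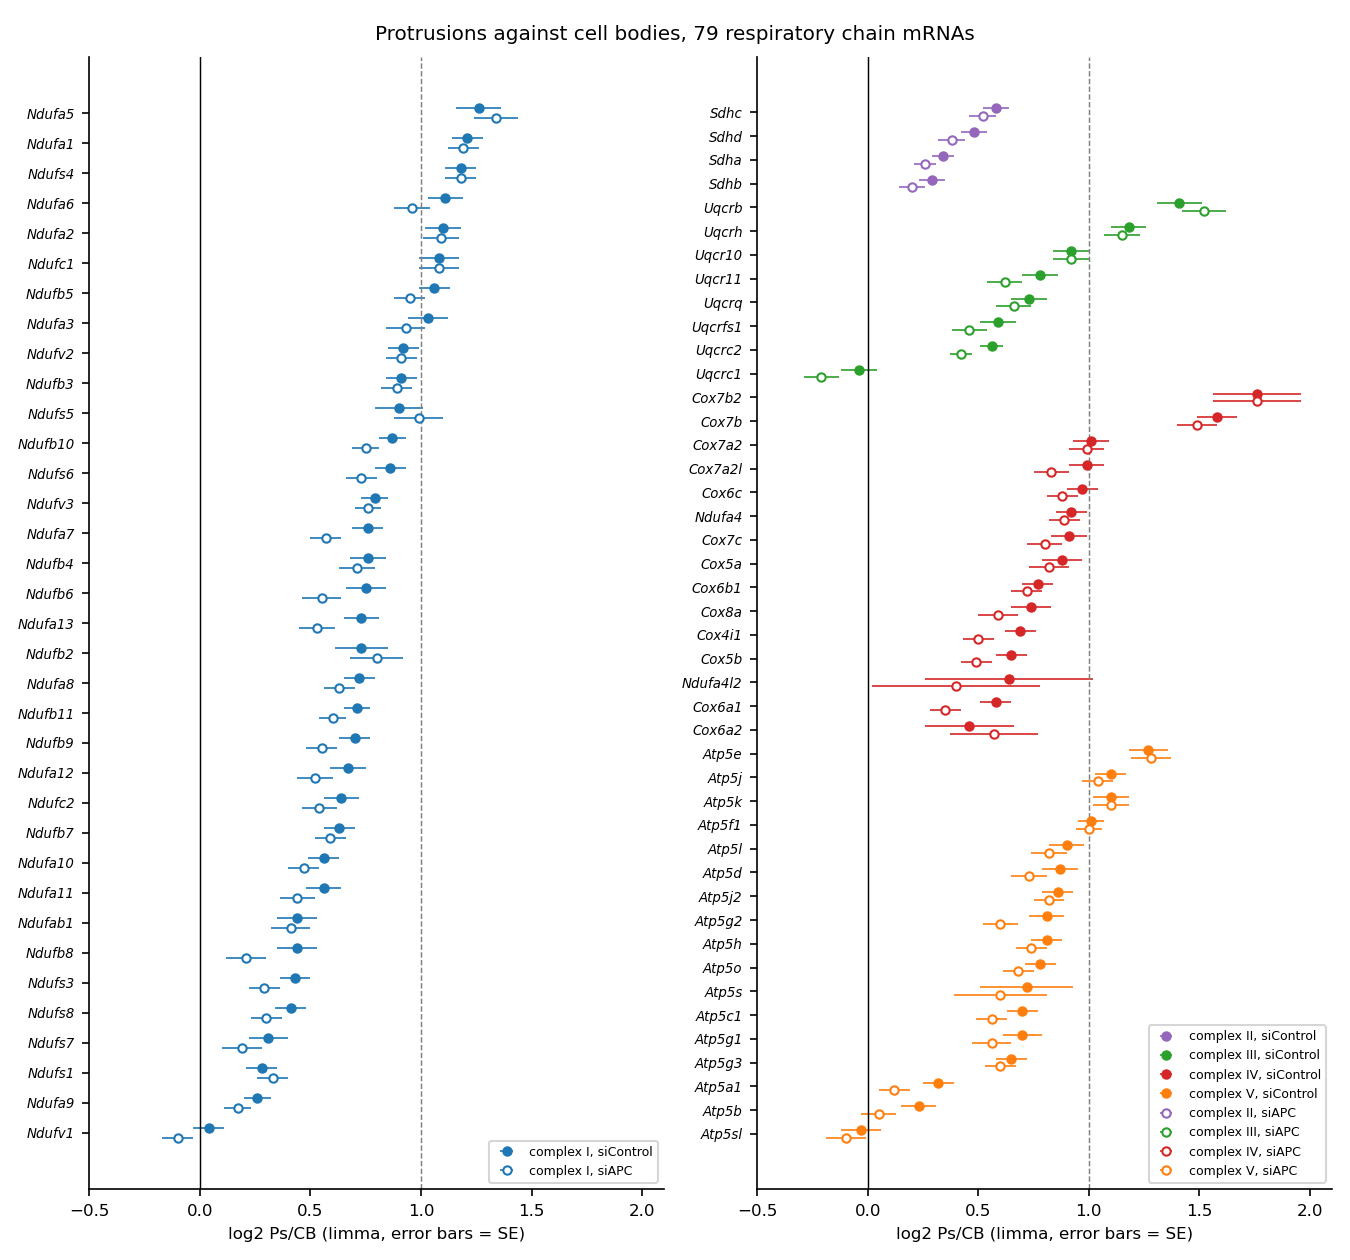
Log2 ratio of Ps to CB for 79 of the 80 mRNAs, sorted within each complex by the siControl value. Filled points are siControl and open points siAPC, bars are the limma SE, and the dashed line marks a fold change of 2. Nearly all points lie right of 0, with Ndufv1, Uqcrc1 and Atp5sl at or near 0 at the foot of complexes I, III and V.

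Complex I was represented by 36 mRNAs, of which 35 were higher in Ps (median 0.73). Ndufa5, an accessory subunit of the arm that hands electrons to ubiquinone (chr6:24518666-24528013, minus strand, GRCm38, protein coding), had the highest ratio. Its log2 CPM was 4.57, 4.68, 4.46 and 4.48 in siControl CB and 5.92, 6.03, 5.57 and 5.70 in siControl Ps. The 4 Ps values lay above the 4 CB values, a 2.39-fold difference (log2 1.26, SE 0.10, limma adjusted p = 2.01e-09). Ndufa1, a small subunit of the membrane arm encoded on the X chromosome, read 5.00, 4.88, 4.90 and 4.91 in CB and 6.30, 6.13, 6.01 and 6.07 in Ps. That is a 2.31-fold difference without overlap (log2 1.21, SE 0.07, limma adjusted p = 5e-11). Ndufs4, a peripheral arm subunit known from inherited complex I deficiency, was 2.27-fold higher (log2 1.18, SE 0.07, limma adjusted p = 1.77e-10).

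At the other end of complex I stood Ndufv1, Ndufa9 and Ndufs1. Ndufv1, which binds NADH and the flavin (chr19:4007384-4012806, minus strand), read 8.07, 8.03, 7.75 and 7.99 in CB and 8.03, 7.88, 8.03 and 8.06 in Ps. These values overlapped, and the log2 ratio of 0.04 (SE 0.07) did not pass (limma adjusted p = 0.652). Scaled to total listed reads its ratio was -0.26. Ndufa9, of the ubiquinone-reducing arm, was 1.20-fold higher (log2 0.26, SE 0.06, limma adjusted p = 0.000912), but had -0.03 when scaled to total listed reads. Ndufs1, the large iron-sulfur subunit, was 1.21-fold higher (log2 0.28, SE 0.07, adjusted p = 0.00225) and had -0.02 under that scaling. By position in the enzyme, the median log2 Ps/CB was 0.79 for the 9 mRNAs of the NADH-oxidizing module (8 higher), 0.41 for the 7 of the ubiquinone-reducing module (7 higher), 0.73 for the 9 of the proximal membrane arm (9 higher, from 0.56 to 1.21) and 0.74 for the 10 of the distal membrane arm (10 higher, from 0.44 to 1.06). The remaining mRNA, Ndufab1 for the acyl carrier subunit, had a log2 ratio of 0.44.

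Complex II, which has no subunit from the mitochondrial genome and is also an enzyme of the citric acid cycle, had the lowest median ratio (0.41), and all 4 of its mRNAs were higher in Ps. Sdha, the flavoprotein (chr13:74322254-74350280, minus strand), read 6.97, 6.92, 6.98 and 6.96 in CB and 7.31, 7.33, 7.29 and 7.27 in Ps. The replicates lay within a narrow band, and the small difference of 1.27-fold (log2 0.34, SE 0.05, limma adjusted p = 1.01e-05) had no overlap. Sdhb, the iron-sulfur subunit, was 1.22-fold higher (log2 0.29, SE 0.06), with -0.01 when scaled to total listed reads. The membrane anchors Sdhc and Sdhd were 1.49-fold (log2 0.58, SE 0.06) and 1.39-fold (log2 0.48, SE 0.06) higher, with limma adjusted p values of 1.49e-07 and 8.53e-07.

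In complex III 7 of 8 mRNAs were higher (median 0.75), with log2 ratios from -0.04 to 1.41. Uqcrb, a small subunit next to the ubiquinone sites (chr13:66900617-66905378, minus strand), read 5.07, 4.96, 4.81 and 4.90 in CB and 6.56, 6.50, 6.14 and 6.16 in Ps. It was 2.65-fold higher in Ps (log2 1.41, SE 0.10, limma adjusted p = 1.6e-09). Uqcrh, the acidic hinge protein, was 2.26-fold higher (log2 1.18, SE 0.08), and Uqcr10, another small subunit, 1.90-fold (log2 0.92, SE 0.08). Uqcrc1 and Uqcrc2 are the large core proteins that face the matrix. Uqcrc1 (chr9:108936633-108949623, plus strand) read 8.07, 8.08, 7.81 and 8.07 in CB and 7.94, 7.75, 8.14 and 8.02 in Ps. Its values overlapped, with a log2 ratio of -0.04 (SE 0.08, limma adjusted p = 0.688), which was 0.13 after the loess correction for GC content and length. Uqcrc2 was 1.47-fold higher (log2 0.56, SE 0.05, adjusted p = 2.11e-08), and Uqcrfs1, the Rieske iron-sulfur protein, 1.51-fold (log2 0.59, SE 0.08, adjusted p = 2.84e-06).

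Complex IV had the highest median ratio (0.88), with 13 of 15 mRNAs higher. The top ratio of all 80 mRNAs was that of Cox7b2, a paralog of Cox7b, which was 3.40-fold higher in Ps (log2 1.76, SE 0.20, limma adjusted p = 3.01e-07) at a low level of 28 to 134 reads per library. Cox7b itself (chrX:106015700-106022450, plus strand), a small subunit that spans the membrane, read 6.23, 6.18, 6.19 and 6.13 in CB and 7.99, 7.89, 7.55 and 7.61 in Ps. The fractions did not overlap, and Ps was 2.98-fold higher (log2 1.58, SE 0.09, limma adjusted p = 5.2e-11). Cox7a2, another small subunit, was 2.02-fold higher (log2 1.01, SE 0.08). Cox7a2l, a relative of Cox7a2 that joins complexes III and IV into supercomplexes, was 1.99-fold higher (log2 0.99, SE 0.08). Ndufa4 was 1.90-fold (log2 0.92, SE 0.07), Cox6b1 1.71-fold, Cox8a 1.67-fold and Cox4i1 1.62-fold higher (log2 0.77, 0.74 and 0.69). The 10 ubiquitous subunits of complex IV ran from 0.58 to 1.58 (median 0.83, 10 higher). The lowest ratios were those of the isoform pair of subunit 6a. Cox6a1 was 1.50-fold higher (log2 0.58, SE 0.07, limma adjusted p = 7.16e-07). The muscle form Cox6a2, with 20 to 59 reads per library, had a log2 ratio of 0.46 (SE 0.20) that missed the threshold (limma adjusted p = 0.0511), and Ndufa4l2 had 0.64 (SE 0.38, adjusted p = 0.158).

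Complex V had 16 of 17 mRNAs higher (median 0.81). Atp5e, the epsilon subunit of the central stalk (chr2:174461072-174464105, minus strand), read 7.07, 7.25, 6.79 and 7.05 in CB and 8.57, 8.31, 8.13 and 8.24 in Ps. It was 2.42-fold higher (log2 1.27, SE 0.09, limma adjusted p = 1.04e-09). Atp5j, coupling factor 6 of the peripheral stalk, and Atp5k, the membrane subunit e, were each 2.14-fold higher (log2 1.10 for both, SE 0.07 and 0.08). By position, the median was 0.91 for the 4 mRNAs of the peripheral stalk, 0.90 for 3 accessory subunits of the membrane part, 0.70 for the 3 of the c ring and 0.70 for the 5 of the catalytic head and central stalk, and all of these were higher. The large subunits of the head had ratios below that of Atp5e. Atp5b read 11.09, 11.04, 10.73 and 10.92 in CB and 11.24, 11.12, 11.20 and 11.14 in Ps, a 1.17-fold difference (log2 0.23, SE 0.08, limma adjusted p = 0.0127) that turned negative when scaled to total listed reads (-0.07) or by quantiles (-0.61). Atp5a1, the alpha subunit, was 1.25-fold higher (log2 0.32, SE 0.07, adjusted p = 0.000315), a call that was lost when scaled to total listed reads (0.03) or by quantiles (0.02). The 3 genes Atp5g1, Atp5g2 and Atp5g3 encode the same mature peptide of the c ring with different import signals, and they were 1.63-, 1.75- and 1.57-fold higher (log2 0.70, 0.81 and 0.65). Atp5sl read 4.96, 4.85, 4.64 and 4.91 in CB and 4.82, 4.82, 4.79 and 4.81 in Ps (log2 -0.03, SE 0.09, adjusted p = 0.776), with overlap between the fractions.

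**Figure D3:**
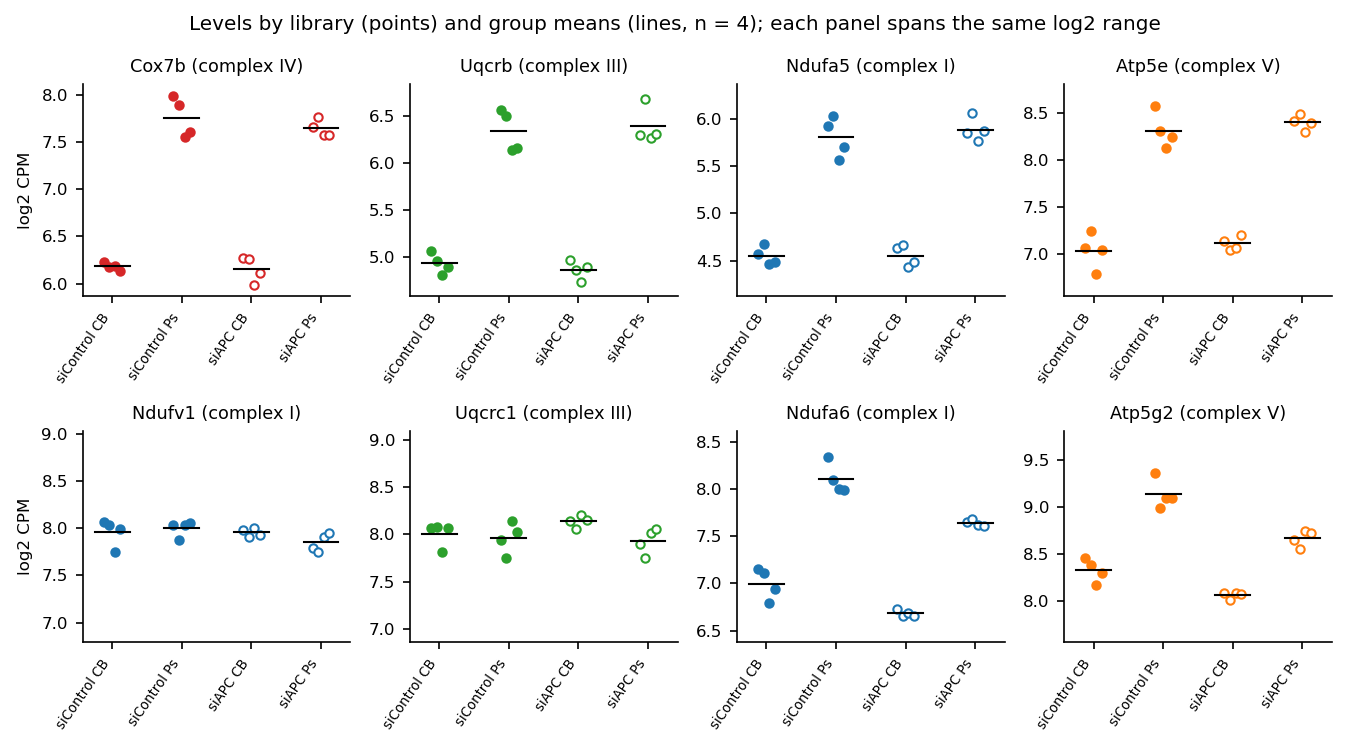
Log2 CPM of 8 mRNAs by library, each panel spanning the same log2 range. Points are libraries (filled, siControl; open, siAPC) and lines are group means (n = 4). Ps and CB separate for Cox7b, Uqcrb, Ndufa5 and Atp5e, overlap for Ndufv1 and Uqcrc1 with siControl, and for Ndufa6 and Atp5g2 both fractions are lower with siAPC.

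Across complexes, a list of 10 mRNAs named for catalytic or core subunits had a median log2 Ps/CB of 0.31, with 8 higher. Among them were Ndufv1, Ndufs1, Sdha, Sdhb, Uqcrc1, Uqcrfs1, Cox4i1, Atp5a1 and Atp5b. Cox4i1 is by role a ubiquitous subunit of complex IV, so the list's name does not hold for every member. The other 70 had a median of 0.78, with 67 higher. The list does not hold every core subunit. Among the 70 are the iron-sulfur subunit Ndufv2 of complex I, at 0.92, and Uqcrc2, at 0.56. The complex I subunits Ndufs3, Ndufs8 and Ndufs7, at 0.43, 0.41 and 0.31, are there too. These lists also differ in length: the median coding length was 1420 nucleotides for the 10 and 387 for the 70. Over the 80 mRNAs the log2 ratio fell with the log10 of the coding length (Pearson r = -0.66, Spearman rho = -0.66, n = 80 genes). Over the 11488 RNAs of the table with a coding length, r was -0.33 and rho -0.34. Genes are not independent replicates, and all these points share the same 8 siControl libraries. With GC content, r was -0.40 over the 80 mRNAs and -0.32 over the table.

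Respiratory chain mRNAs are short, with a median coding length of 426 nucleotides against 1370 for the table, so they were set beside RNAs of like length. Among the 59 of up to 600 nucleotides, 57 were higher in Ps (median 0.81), while of all 1567 RNAs of that length 1014 were higher (median 0.47). Among the 21 longer ones 18 were higher (median 0.38), and of all 9921 longer RNAs 2189 were (median -0.12). In 9 classes of coding length, 76 of the 80 mRNAs were above the median of their class and 42 above its upper quartile. After a loess correction of each library for GC content and transcript length, 53 of the 80 mRNAs were still higher in Ps and 0 lower, against 30.2% and 25.3% of all RNAs, and their median log2 ratio was 0.23, against 0.039 over all RNAs so corrected. Among the mRNAs named here, 8 lost their call in this comparison: Atp5g1 (0.14), Atp5g2 (0.16), Atp5g3 (0.01), Atp5j (0.08), Cox6a1 (0.09), Cox6b1 (0.06), Ndufa4 (0.05) and Ndufa9 (0.00). The part of length in the ratios was not tested further.

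**Figure D4:**
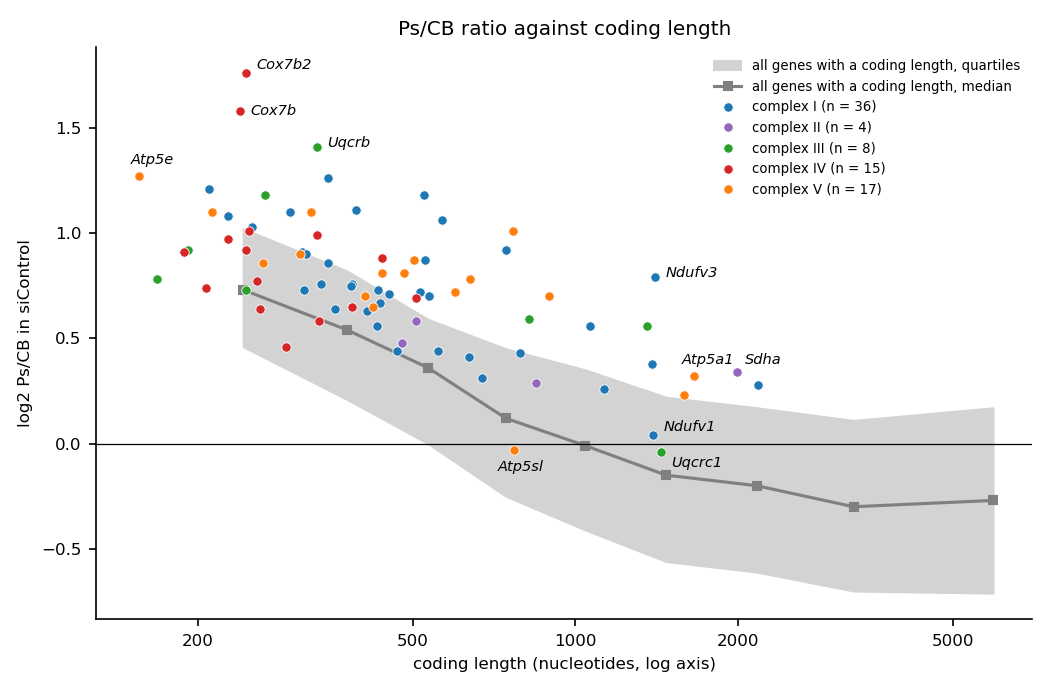
Log2 Ps/CB in siControl against coding length (nucleotides, log axis). Coloured points are the 80 mRNAs by complex, and the grey line and band are the median and quartiles of all RNAs with a coding length, in 9 length classes. Both fall with length, and 76 of the 80 points are above the median of their class.

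Other nuclear mRNAs for mitochondria were read from lists drawn up alongside, to be set beside the 29.1% of all RNAs higher and 31.2% lower in Ps. Of 44 assembly factors 25 were higher in Ps and 1 lower (median 0.36), from Cox20 at 1.52 to the copper chaperone Cox17 at -1.17. The list of electron carriers and small related subunits outside the name rule had 7 of 10 higher and 1 lower (median 0.42), and that of the citric acid cycle 10 of 13 higher (median 0.39). Of 23 mRNAs for protein import 19 were higher (median 0.64), led by Hspe1, the small mitochondrial chaperonin, at 1.24. Mitochondrial ribosomal proteins had 67 of 76 higher (median 0.52) and cytoplasmic ribosomal proteins 75 of 76 (median 1.26). The list of regulators of mitochondrial biogenesis had 1 of 13 higher (7.69%) and 4 lower (30.8%, near the share of all RNAs). Its median was -0.09, from Tfb1m at 0.64 to the mitochondrial RNA polymerase Polrmt at -0.78. The chain's mRNAs from the mitochondrial genome itself, read inside the organelle, had 9 of 11 higher and a median of 1.73. Whether more mitochondria in Ps went with these ratios was not tested.

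Near-identical copies limit some of these values. In 5 mRNAs (Atp5g2, Atp5l, Atp5h, Atp5g1 and Cox7c) more than 50% of the 50-base stretches of the transcript occur in another gene. For 10 of the mRNAs with more than 20% of stretches so shared the named copy was itself listed, and all 10 copies were higher in Ps. For Atp5g2 100% of stretches occur in other genes, over a transcript of 441 bases with a coding length of 438. Its named copy Gm10175 had 24 to 84 reads per library, against 4760 to 8350 for Atp5g2. With siAPC this copy was itself lower in Ps (log2 -0.65, limma adjusted p = 0.0434). In CB it had -0.46 without passing (limma adjusted p = 0.199). For Ndufs5 41.2% of stretches occur in other genes. Its named copy BC002163 was as abundant as the gene, with 384 to 649 reads against 338 to 690, so reads of Ndufs5 and its copy may be mixed. The copies of Ndufa12 (Gm15920, 398 to 654 reads against 1439 to 2214) and Atp5o (Gm5436, 230 to 459 against 4467 to 7708) were also well covered. In all, 23 of the 80 mRNAs overlap a gene on the opposite strand, Atp5f1, Uqcrb and Cox4i1 among them, and use of strand in the counting is not given in the sources used here. Another 4 overlaps are with a gene on the same strand, in Ndufb2, Ndufb8, Ndufb9 and Atp5o, where use of strand would not separate the reads.

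The same comparison was made in cells with less Apc. With siAPC 73 of the 80 mRNAs were higher in Ps and 1 was lower, against 29.8% and 30.9% of all RNAs. By the fold change rule 12 were Ps-enriched, against 7.67% of all RNAs. Scaled to total listed reads 7 met the rule, against 5.36% of all RNAs, and after the loess correction 0 did, against 3.16%. At the adjusted threshold 47 were higher after the loess correction, against 28.9% of all RNAs. The median was 0.61 over the 80 mRNAs, and 0.60, 0.63, 0.66 and 0.69 in the 4 pairs. By complex, 34 of 36 were higher in complex I (median 0.59), 4 of 4 in complex II (0.32), 7 of 8 in complex III (0.64), 14 of 15 in complex IV (0.80) and 14 of 17 in complex V (0.68). Uqcrc1 was the mRNA that was lower, at 8.14, 8.06, 8.20 and 8.15 in CB and 7.90, 7.75, 8.01 and 8.06 in Ps (log2 -0.21, SE 0.08, limma adjusted p = 0.0408). The fractions overlapped at 8.06, and the call was lost without siAPC CB 1, CB 3, CB 4, Ps 1 or Ps 2 and without the intensity trend. The highest were Cox7b2 at 1.76, Uqcrb at 1.52, Cox7b at 1.49 and Ndufa5 at 1.34. Atp5a1 at 0.12 and Atp5b at 0.05 did not pass with siAPC (limma adjusted p = 0.138 and 0.597), nor did Ndufs7, an iron-sulfur subunit of complex I, at 0.19 (adjusted p = 0.0844). Across the 80 mRNAs the ratios in the 2 siRNAs, which share no libraries, had a Pearson r of 0.98 (n = 80 genes), and across the table of 0.91. These are correlations across genes, which share their length and GC content in both siRNAs.

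Whether the Ps/CB ratio differed between siRNAs was tested by the interaction, log2(Diff FC), which is the siAPC ratio minus the siControl ratio. At limma adjusted p below 0.05, 0 of the 80 mRNAs had a higher ratio and 0 a lower one, against 0% and 0.0231% of all RNAs. At an unadjusted p below 0.05 the counts were 0 and 2, the latter Cox6a1 and Atp5a1, against 2.07% and 1.71% of all RNAs. The count of lower ratios at that p was 4 with the 4 GC-affected libraries left out (2.81% of all RNAs) and 6 after the loess correction (2.77%). It ran from 0 to 9 over the 16 fits without 1 library, with 9 without siControl Ps 2 (3.83% of all RNAs), 7 without siControl CB 1 (2.33%) and 0 without siControl CB 3, siControl Ps 3 or siAPC CB 1. With recomputed voom weights the adjusted counts were again 0 and 0. The median log2(Diff FC) of the 80 was -0.09 and 73 were negative, but with libraries scaled to total listed reads the median was 0.05, so its sign rests on the scaling. Under that scaling the table's median was 0.147. The median of the 80 less that of all RNAs was -0.098, and it was -0.025 with quantile normalization, -0.030 with the 4 GC-affected libraries left out and -0.034 without siControl CB 3. Among mRNAs with a mean log2 CPM of at least 1, the most negative values were those of Cox6a1 (-0.23, limma adjusted p = 0.981), Ndufb8 of the membrane arm of complex I (-0.22) and Atp5g2 (-0.21), while the low Ndufa4l2 had -0.24. The most positive were Uqcrb and Cox6a2, both 0.11, and Ndufs5, a small complex I subunit whose sequence is shared in part with a listed copy, at 0.09. None of these 6 passed. Atp5a1, whose ratio passed with siControl only, had -0.21 (limma adjusted p = 0.981), so its ratios were not shown to differ.

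Levels with siAPC against siControl were then compared within each fraction. Markers moved with the siRNA too: the summed CPM of the fibroblast list was 52700 to 56300 in siAPC CB against 40900 to 43100 in siControl CB, and 27500 to 29200 in siAPC Ps against 19200 to 22100 in siControl Ps, and Acta1, the 1 muscle marker of 5 that was listed, was higher by a log2 ratio of 2.1 in CB and 1.73 in Ps. By gene, 4 of the 10 fibroblast markers were higher and 1 lower in CB (Pdgfra, -0.40, limma adjusted p = 0.00707), and 5 were higher and 0 lower in Ps. The sum of the 2 listed epithelial markers of 6, Krt14 and Cdh1, was 413 to 416 in siAPC CB against 301 to 358 in siControl CB. In Ps it was 295 to 326 with siAPC against 234 to 270 with siControl. Of these 2 markers Krt14 was called higher in CB (log2 0.31, limma adjusted p = 0.0125). The sum of the nuclear RNAs Malat1 and Neat1 was 467 to 633 in siAPC CB against 681 to 1030 in siControl CB. In CB neither passed (Malat1 -0.08, limma adjusted p = 0.917, and Neat1 -0.55, limma adjusted p = 0.202). Their sums in Ps overlapped, at 102 to 236 with siAPC and 112 to 280 with siControl. The part of these markers and nuclear RNAs in the results was not tested. In CB 0 of the 80 mRNAs were higher and 5 lower at limma adjusted p below 0.05, against 7.52% and 5.87% of all RNAs. At an unadjusted p below 0.05 1 was higher and 9 were lower (11.2%), against 12.6% and 13.9% of all RNAs. With the 4 GC-affected libraries left out 26 were lower, against 17.4% of all RNAs, and without siControl CB 3 alone 30 were, against 15.7%. The median log2 siAPC/siControl was -0.03 over the 80 mRNAs and -0.04 over the table. In Ps 0 were higher and 22 lower, against 10.7% and 11.2% of all RNAs, with medians of -0.12 over the 80 mRNAs and -0.025 over the table. At an unadjusted p below 0.05 the counts in Ps were 2 and 33, against 15.3% and 17.8% of all RNAs. With total listed reads as the scale, 8 of the 80 were higher and 5 lower in Ps at the adjusted threshold, against 22.6% and 4.23% of all RNAs, and the table's median was 0.139. Relative to all RNAs the median of the 80 was -0.099, and it was -0.023 with quantile normalization, -0.029 after the loess correction and -0.051 without siControl Ps 1. The count in CB was 11 lower without siControl CB 3 (7.69% of all RNAs) and 11 with the 4 GC-affected libraries left out (8.51%). It was 3, or 3.75% of the 80, without siAPC CB 3 or without siControl CB 1, near the 3.96% and 3.86% of all RNAs. The count in Ps was 12 lower without siControl Ps 1 (9.08% of all RNAs) or without siAPC Ps 1 (9.2%), and 15 without siAPC Ps 2 (9.72%).

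The 22 mRNAs lower in Ps were spread over all complexes: 8 of complex I, 3 of complex II, 2 of complex III, 4 of complex IV and 5 of complex V. Of the 10 on the list named for catalytic or core subunits 6 were among them, including Sdha, Uqcrfs1, Atp5a1, Atp5b and the ubiquitous subunit Cox4i1. Atp5a1 had -0.27 (SE 0.07, limma adjusted p = 0.00605), Atp5b -0.26 (SE 0.08, adjusted p = 0.0192) and Cox4i1 -0.25 (SE 0.07, adjusted p = 0.0148). In complex II, Sdha had -0.23 (SE 0.05, adjusted p = 0.00263), with its lowest siControl library at 7.27 and its highest siAPC library at 7.17. Sdhc and Sdhd had -0.21 and -0.20 (adjusted p = 0.0208 and 0.0185), and Sdhb had -0.17 without passing (adjusted p = 0.0751). With total listed reads as the scale, none of these 7 passed as lower. Among the lists alongside, cytoplasmic ribosomal proteins had 67 of 76 lower in Ps (median -0.36), the citric acid cycle 6 of 13 (median -0.17) and mRNAs of the mitochondrial genome 3 of 11 (median -0.20). Mitochondrial ribosomal proteins had 13 of 76 lower (median -0.09), assembly factors 9 of 44 lower and 1 higher (median -0.13), protein import 3 of 23 lower and 1 higher (median -0.17), other carriers and small subunits 3 of 10 lower (median -0.20) and regulators 0 of 13 (median -0.02). Of all RNAs 11.2% were lower and 10.7% higher in Ps with siAPC. The 13.0% of protein import that were lower is near that share.

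The 5 mRNAs lower in CB were also lower in Ps. They were Ndufa6 and Ndufa7, accessory subunits of the peripheral arm of complex I, Uqcrc2, Atp5g2, and Atp5f1, subunit b of the peripheral stalk of ATP synthase. Ndufa6 (chr15:82350140-82354322, minus strand) read 7.15, 7.11, 6.79 and 6.94 in siControl CB and 6.73, 6.66, 6.69 and 6.65 in siAPC CB. In Ps it read 8.34, 8.10, 8.0 and 7.99 with siControl and 7.65, 7.68, 7.62 and 7.61 with siAPC. The siAPC libraries were below the siControl libraries in both fractions, by a log2 ratio of -0.31 in CB (SE 0.08, limma adjusted p = 0.0115) and -0.47 in Ps (SE 0.08, adjusted p = 0.000286). Its level thus fell by 19.6% in CB and fell by 27.6% in Ps.

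Ndufa7 (chr17:33824572-33838317, plus strand) read 7.63, 7.70, 7.37 and 7.62 in siControl CB and 7.29, 7.30, 7.33 and 7.30 in siAPC CB. In Ps its values were 8.44, 8.26, 8.31 and 8.34 with siControl and 7.88, 7.77, 7.88 and 7.98 with siAPC. There was no overlap in either fraction (log2 -0.27, SE 0.07, limma adjusted p = 0.00925 in CB and log2 -0.46, SE 0.07, adjusted p = 5.9e-05 in Ps). Atp5g2 (chr15:102662864-102672352, minus strand) read 8.46, 8.39, 8.17 and 8.30 in siControl CB, 8.09, 8.01, 8.09 and 8.08 in siAPC CB, 9.36, 8.99, 9.10 and 9.10 in siControl Ps and 8.65, 8.55, 8.75 and 8.72 in siAPC Ps. It was lower by a log2 ratio of -0.26 in CB (SE 0.08, adjusted p = 0.0273) and -0.47 in Ps (SE 0.08, adjusted p = 0.000171). The CB value of Atp5g2 no longer passed in 7 of 16 fits that left out 1 library. The other c ring genes did not pass in either fraction: Atp5g1 had 0.05 in CB and -0.10 in Ps, and Atp5g3 -0.04 and -0.09.

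Uqcrc2 (chr7:120635176-120659524, plus strand) read 7.12, 7.02, 6.98 and 7.05 in siControl CB and 6.90, 6.84, 6.80 and 6.78 in siAPC CB. Its Ps values were 7.64, 7.61, 7.57 and 7.57 with siControl and 7.22, 7.31, 7.25 and 7.20 with siAPC, again without overlap (log2 -0.21, SE 0.05, limma adjusted p = 0.0073 in CB and log2 -0.35, SE 0.05, adjusted p = 4.86e-05 in Ps). The CB call of Uqcrc2 was lost after the loess correction (log2 -0.15, adjusted p = 0.113). Atp5f1 (chr3:105942698-105960099, minus strand) was lower by -0.22 in CB (SE 0.06, adjusted p = 0.0174) and -0.23 in Ps (SE 0.06, adjusted p = 0.00843). Its Ps libraries overlapped, at 7.62 to 7.84 with siControl and 7.46 to 7.63 with siAPC, and its CB value did not pass without siControl CB 1 or without siAPC CB 3. The Ps call of Atp5f1 was lost with total listed reads as the scale (log2 -0.07, adjusted p = 0.454) and with quantile normalization (log2 -0.16, adjusted p = 0.0756). Cox7a2l and Ndufb9, a distal membrane arm subunit, passed in Ps only, with -0.33 (SE 0.08, adjusted p = 0.00625) and -0.28 (SE 0.07, adjusted p = 0.00716), while their CB ratios were -0.17 and -0.12. The interaction did not pass for either mRNA (limma adjusted p = 0.981). Of the 6 mRNAs with the largest changes in Ps among those called, 5 also passed with libraries scaled to total listed reads, all but Ndufb9. Uqcr10 had the same ratio of 0.23 in both fractions and did not pass (limma adjusted p = 0.0653 in CB and 0.0501 in Ps). In Ps it passed with the replicate block (adjusted p = 0.044) and in 12 of 26 alternatives in all, with adjusted p from 0.000197 to 0.142. Its siAPC Ps values of 7.87, 7.85, 7.84 and 8.0 were above the siControl Ps values of 7.81, 7.73, 7.54 and 7.56. Across the 80 mRNAs the log2 siAPC/siControl ratios in CB and Ps had a Pearson r of 0.90 and a Spearman rho of 0.79 (n = 80 genes, which are not independent). Some of the extremes are mRNAs with few reads, such as Ndufa4l2 (-0.63 in CB and -0.87 in Ps) and Atp5s (-0.42 and -0.54), and same-numbered siAPC libraries of CB and Ps deviated together.

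**Figure D5:**
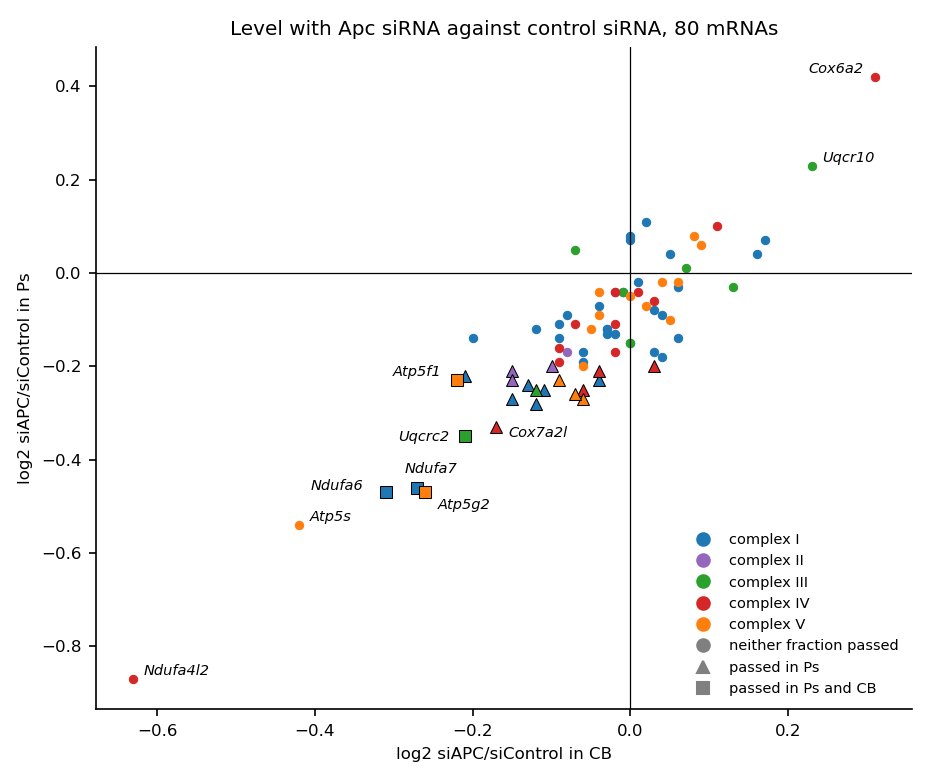
Log2 ratio of siAPC to siControl in CB (x axis) and in Ps (y axis) for the 80 mRNAs, coloured by complex. Squares passed the limma adjusted threshold in both fractions, triangles in Ps only, and circles in neither. The 5 squares (Ndufa6, Ndufa7, Atp5g2, Uqcrc2 and Atp5f1) lie at the lower left, and no mRNA passed as higher.

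Promoter windows are shown for the mRNAs called lower with siAPC in both fractions. Windows of 300 bases, from 250 before to 50 after the start, were found in RefSeq (GRCm38.p6) for 64 of the 80 genes and for 3 of the 5 lower in both fractions. The starts of these windows are those of RefSeq and need not be the 5′ ends of the gene positions given above: the start lies 1305 bases inside the position of Atp5g2, 31 bases inside that of Ndufa6 and at the 5′ end of Ndufa7. Those 3 are printed 5′ to 3′ along the gene's strand, with capitals marking the motif letters found on either strand. In Ndufa6 and Atp5g2 the capitals are the core of the NRF1 site, GCGCATG, which in Atp5g2 occurs on both strands in overlapping positions. In Ndufa7 they are a TATA box match, TATAAA, on the opposite strand.
Ndufa6, chr15:82354242-82354541, minus strand: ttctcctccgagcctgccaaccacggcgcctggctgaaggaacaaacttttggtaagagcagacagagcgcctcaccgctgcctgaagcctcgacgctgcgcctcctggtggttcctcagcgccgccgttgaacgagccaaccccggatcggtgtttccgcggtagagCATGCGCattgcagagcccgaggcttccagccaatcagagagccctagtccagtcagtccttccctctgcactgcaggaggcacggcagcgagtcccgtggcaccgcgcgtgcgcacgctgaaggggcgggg
Ndufa7, chr17:33824322-33824621, plus strand: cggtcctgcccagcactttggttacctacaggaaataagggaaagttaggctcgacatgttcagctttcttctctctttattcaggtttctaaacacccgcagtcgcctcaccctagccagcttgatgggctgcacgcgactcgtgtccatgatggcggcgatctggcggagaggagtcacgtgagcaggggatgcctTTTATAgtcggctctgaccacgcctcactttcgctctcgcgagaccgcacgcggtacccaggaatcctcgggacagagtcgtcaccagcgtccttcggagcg
Atp5g2, chr15:102670998-102671297, minus strand: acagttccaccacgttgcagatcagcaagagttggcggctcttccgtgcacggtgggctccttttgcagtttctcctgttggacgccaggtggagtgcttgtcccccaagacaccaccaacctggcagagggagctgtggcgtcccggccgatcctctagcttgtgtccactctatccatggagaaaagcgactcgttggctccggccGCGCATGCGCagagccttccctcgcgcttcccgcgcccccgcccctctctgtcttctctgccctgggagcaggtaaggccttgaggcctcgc

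NRF1 is a factor known for its sites in promoters of respiratory chain genes. Its core GCGCATG was in at least 1 window of 13 of the 64 genes (20.3%) and of 8.26% of the 9170 genes of the table with a window. The ETS core CCGGAAG, bound by NRF2 (GABP), was in 25% and 20.4%, the YY1 core AAGATGG in 15.6% and 8.67%, and TATAAA in 9.38% and 8.42%. The TCF/LEF core CTTTGAT, the motif of the factors that act with beta-catenin, was in 1 of the 64 genes and in 2.98% of the table. Of the 22 mRNAs lower with siAPC in Ps, 15 had a window. The NRF1 core was in 4 of these (26.7%), the ETS core in 2 (13.3%) and the YY1 core in 1 (6.67%). TATAAA was in 2 (13.3%) and the TCF/LEF core in 0. The ETS and YY1 shares are thus below those of the table and the NRF1 share above, in a set of 15 genes. A match of letters describes the window and is not a measured site.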

How the data were processed

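RNA from 16 libraries of NIH/3T3 protrusions and cell bodies was read as a single table. According to the study's methods, the authors aligned stranded paired-end reads with STAR 2.4.2a to mm10, counted them per gene with Rsubread and kept genes above an expression cutoff. The deposited values are log2 CPM (scaled counts) from limma-voom, made by the authors from reads plus 0.5 and a scaled library size. Inverting them gave whole reads for 100% of 208240 values (tolerance 0.01). Beside the gene names the table held only the columns of the 16 libraries, and no comparison columns of the authors.

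Differences were fitted here with limma 3.58.1 (R 4.3.3) as lmFit and eBayes with an intensity trend, with 1 mean per group over all 16 libraries and Benjamini-Hochberg adjustment over 13015 RNAs. The fit was tested on simulated data. Other steps used Python 3.11.15 with pandas 2.3.3, numpy 2.4.6 and scipy 1.17.1. The study's rule (fold change above 2, unadjusted p below 0.05) was run as well. The study describes its replicates as independent, and p-values measure the spread between these libraries. Gene positions, lengths and overlaps came from GENCODE (GRCm38), matched for 12426 RNAs by symbol and 446 by an older symbol (Atp5sl among them). The GENCODE release named in the study's methods is a different one. Counting error is small except for mRNAs with few reads, where 3 reads correspond to -2.73 to -1.80 log2 CPM.

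The members, lists and tests were chosen with earlier results of these data known. Named mRNAs were, for Ps against CB, the 3 highest and 2 lowest of each complex (all of complex II). For each siRNA contrast they were up to 6 of the largest called changes, and for the interaction the 3 extremes in each direction. In addition they were the paralog sets and the list of 10 named for catalytic or core subunits. Other genes named (Ndufs3, Ndufs7, Ndufs8, Ndufv2, Ndufab1, and Uqcr10 and the core and complex II subunits in the siRNA comparison) were chosen after their values were seen. The values of 1 mRNA are not reported here, although it remains in the fits and in the counts and medians over the 80. Same-numbered libraries deviated together over 10292 genes for siAPC CB and Ps (r from 0.416 to 0.617) and for siControl and siAPC Ps (0.162 to 0.551), where every pair exceeded 0.1. They did not for siControl CB and Ps (-0.121 to 0.432) or for siControl and siAPC CB (-0.336 to 0.269), so the fit without a replicate block is given. Alternatives were other scalings, weights, no trend, a filter on low values, another prior count, the replicate block, a loess correction for GC content and transcript length, and leaving out libraries.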

Additional observations from a re-analysis of the deposited data

Results flagged for a closer look

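Of 192 sets of 4 libraries examined (each named mRNA and each complex's median in each group), 14 held a library whose gap to the nearest of the others, divided by the whole range, was above Dixon's critical value. Chance gives about 1 in 20.

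In siControl CB 3, 5 values were low. The median log2 CPM of complex II was 6.76, with 6.96 to 6.98 in the other libraries. Cox6a1 was 8.23 (others 8.44 to 8.48), Ndufb8 6.79 (7.06 to 7.09), Ndufb9 7.58 (7.87 to 7.93) and Uqcrc1 7.81 (8.07 to 8.08). This library is one of the 4 GC-affected ones (rho = -0.535 across genes), and the median of the 80 mRNAs in it lay at -0.27 relative to the other replicates.

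In siControl Ps 1, 3 values were high: the median of complex III at 7.88 (7.66 to 7.70), Cox7a2l at 9.92 (9.58 to 9.61) and Ndufb9 at 8.65 (8.47 to 8.49). The median of the 80 mRNAs was 0.19 above the other replicates in this library.

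In siAPC CB 2, Atp5g2 was low at 8.01 (8.08 to 8.09) and Cox7b2 high at 1.50 (0.87 to 0.97). Atp5g3 was high in siAPC CB 1 at 8.54 (8.48 to 8.49). In siAPC Ps 2, Atp5j at 7.74 (7.57 to 7.59) and Uqcrb at 6.68 (6.26 to 6.31) were high and Cox7a2l at 9.27 (9.37 to 9.38) was low.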

How the results depend on the processing

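Of 53 values of named mRNAs, 30 kept their direction and their side of the threshold under every alternative, and with the replicate block 53 did. With the replicate block the counts for Ps against CB were 75 higher and 0 lower in siControl (30.5% and 32.5% of all RNAs). In siAPC they were 73 and 1 (31.4% and 32.1%), and for the interaction 0 and 0. For siAPC against siControl in CB they were 0 and 7, the 7 being 8.75% of the 80, near the 7.36% of all RNAs. In Ps they were 1 and 25, against 11.9% and 13.5% of all RNAs. The mRNA higher in Ps with the block was Uqcr10. By the fold change rule on the deposited values, 17 mRNAs were higher in siControl and 12 in siAPC. In CB the same-numbered libraries share only a number, and 1 of 4 correlated best with its own.

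Scaled to total listed reads, 3 mRNAs were lower in Ps in siControl (median 0.45) and 3 in siAPC (median 0.46). That scaling also gave 1 higher and 5 lower with siAPC in CB (8.41% and 5.12% of all RNAs). With siAPC in Ps it gave 8 higher and 5 lower (22.6% and 4.23%, median 0.04), and the interaction had a median of 0.05. In siControl, Ps/CB then turned to -0.07 for Atp5b, -0.03 for Ndufa9, -0.02 for Ndufs1, -0.26 for Ndufv1 and -0.01 for Sdhb. With quantile normalization 1 mRNA was lower in Ps in siControl and 3 in siAPC (median 0.69). Ps/CB in siControl was -0.61 for Atp5b and 0.05 for Atp5sl. With siAPC in CB this normalization gave 1 higher and 7 lower (8.43% and 6.53% of all RNAs). With siAPC in Ps it gave 1 higher and 17 lower (11.4% and 10.8%). Without an intensity trend 0 were lower in Ps in siAPC. With a mean of at least 1, a prior of 2 reads, or without the 4 GC-affected libraries, 1 was higher with siAPC in Ps. The shares of all RNAs were 10.9%, 10.5% and 11.7%. Lower in Ps were 22, 22 and 31, against 14.2%, 11.3% and 14% of all RNAs. Without those libraries 11 were lower in CB (8.51%).

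With the loess correction for GC and length, with or without the replicate block, the Ps/CB median was 0.23 in siControl and 0.20 in siAPC, and 4 mRNAs were higher with siAPC in CB. It left 47 higher in Ps in siAPC without the block. The 4 higher in CB were 5% of the 80, against 9.21% of all RNAs without the block and 9.8% with it. Lower with siAPC in CB were 6 without the block (7.5% of the 80, against 12.7% of all RNAs). With the block 9 were (11.2%, against 14.5%). With siAPC in Ps the correction gave 6 higher and 25 lower without the block (13.1% and 16.8% of all RNAs). With the block it gave 7 and 27 (13.8% and 18.5%). Ps/CB in siControl then was 0.20 for Atp5sl, -0.15 for Cox6a2 and 0.13 for Uqcrc1, and 9 values of named mRNAs lost their call (7 with the block). The cause of these shifts was not tested.

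Leaving out 1 library gave 75 to 76 higher and 0 lower in siControl (median 0.66 to 0.80) and 70 to 74 higher and 0 to 1 lower in siAPC (median 0.60 to 0.64). The interaction stayed at 0 and 0 (median -0.13 to -0.02). In CB it gave 0 to 1 higher and 3 to 11 lower (median -0.11 to 0.00), and in Ps 0 to 1 higher and 12 to 27 lower (median -0.15 to -0.08). The sign turned for Atp5sl without siControl CB 1 (0.01, range -0.10 to 0.01), Ndufv1 without siControl CB 3 (-0.03, range -0.03 to 0.08) and Uqcrc1 without siControl Ps 2 (0.03, range -0.11 to 0.03), and in the interaction for Cox6a2 without siControl Ps 2 (-0.10, range -0.10 to 0.21) and Ndufs5 without siAPC Ps 2 (-0.00, range -0.00 to 0.18). Low reads limit Ndufa4l2, Cox6a2, Cox7b2 and Atp5s.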
